A study of Mus musculus with 28 samples.

Results

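STING and the interferon response genes comprised 9 of the 28244 genes in the count table: Tmem173 (which encodes STING), Ifih1, Tbk1, Irf3, Irf1, Irf7, Stat2, Isg15 and Ifit1. They were selected because Tmem173 counts were higher in every group of peripheral neural stem cells (pNSCs) than in the brain neural stem cells (NSCs) of the same experiment, so its values are given here as a description, and Tmem173 carries no test in any comparison. All 9 were found in the table and all 9 passed the filter on low counts in each experiment, Isg15 and Ifit1, and Irf7 in the Nes-GFP experiment, owing to their counts in the lung cells, the tail cells or the neural crest stem cells. Polyadenylated RNA was sequenced from 28 samples in 11 groups. Groups named Brain-NSC, Lung-pNSC, Tail-pNSC, Lung and Tail had 2 samples each. The legends of the study place the lung pNSCs and tail pNSCs among these in Nes-GFP mice, with the lung adult and the tail postnatal. These mice carry a green fluorescent protein (GFP) reporter under Nestin regulatory sequence. The legends name no mouse line for the brain NSCs. They are called Nes-GFP here because the study lists brain NSCs from such mice and took its brain controls mostly from the same mice. Sox2-GFP brain NSCs and postnatal Sox2-GFP lung pNSCs had 3 samples each, from a GFP knock-in at Sox2. Wnt1Cre-mTmG brain NSCs, tail pNSCs and dorsal root ganglion (DRG) pNSCs, and neural crest stem cells of the DRG (DRG NCSCs), had 3 samples each. In Wnt1Cre-mTmG mice a Cre recombinase under Wnt1 regulatory sequence marks neural crest cells and their progeny, as well as some midbrain cells. The study describes the tail and DRG tissue of these mice as postnatal and the DRG NCSCs as taken from adult wild-type mice, so age and genotype cannot be told apart from cell type in the NCSC comparisons. Adult tissue was taken at about 4 to 6 weeks and postnatal tissue at about day 1 to 5. The protocols name no interferon or nucleic acid treatment of any group.

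pNSC cultures were grown from clusters picked by hand after 3 weeks in NSC medium with EGF and FGF, and such clusters are usually clonal, so each group can stand for few founder cells. The study's legends call the samples of a group biological replicates. Whether they were separate lines, cultures or animals is not stated for most groups. The p-values then measure only the spread between these samples, which may still be technical. The labels give the strain C57BL/6 for all samples, whereas the study's methods describe wild-type mice of CD1 or mixed CD1 and C3H background with which the transgenic mice were bred. Age of the brain tissue, and age and culture medium of the lung and tail cells, are not given per sample. Tissue of origin, age and founder line therefore cannot be told apart.

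STING is an adaptor protein of the endoplasmic reticulum. It binds cyclic GMP-AMP, which the enzyme cGAS makes when it meets DNA in the cytosol, and then recruits the kinase TBK1. TBK1 phosphorylates the transcription factor IRF3, which switches on type I interferon genes. MDA5, the product of Ifih1, senses long double-stranded RNA and reaches TBK1 through the mitochondrial adaptor MAVS. Secreted interferon acts through its receptor, Janus kinases, STAT2 and IRF9 to induce interferon-stimulated genes such as Isg15 and Ifit1, and also Irf7, which amplifies the response. Neural stem cells are known to hold many interferon-stimulated genes at a basal level without added interferon.

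Promoter windows of 8 of the 9 members were present in the RefSeq table for GRCm38.p6, as 9 windows of 250 bases before and 50 bases after a gene start. Each window was searched on both strands for the core of the interferon-stimulated response element, which is GAAA, any 2 bases and GAAA, and for the gamma-activated sequence, TTCNNNGAA, where N is any base. Of all 32851 windows of this length, 3.44% held the first and 8.3% the second. The stretches below show the matches upstream of the start, since these elements are the DNA letters through which the interferon factors among the members are known to act. Matches are in capitals, written on the strand of the gene, and the last base before the start is position -1.
Isg15: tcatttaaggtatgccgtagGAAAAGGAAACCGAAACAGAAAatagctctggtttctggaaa
Ifit1: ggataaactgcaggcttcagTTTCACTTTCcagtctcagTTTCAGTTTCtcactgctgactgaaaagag
Stat2: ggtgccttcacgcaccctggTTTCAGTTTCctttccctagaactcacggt
Irf1: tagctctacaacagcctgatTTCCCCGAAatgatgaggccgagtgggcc
The Isg15 stretch lies at chr4:156200855-156200916 on the minus strand and held 3 overlapping response element cores, from -78 to -57. The Ifit1 stretch, at chr19:34640765-34640833 on the plus strand, held 2 cores in reverse orientation, at -104 to -95 and at -85 to -76. The Stat2 stretch, at chr10:128270256-128270305 on the plus strand, held 1 core in reverse orientation at -222 to -213. In the Irf1 stretch, at chr11:53769904-53769952 on the plus strand, the capitals mark 1 gamma-activated sequence at -90 to -82. Ifih1 held 1 response element core after the start, at 32 to 41, and neither motif occurred in the windows of Irf3, Irf7 and Tbk1 or in the other window of Irf1. A match says only that these letters are present.

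Between 9808246 and 22637031 reads per sample were assigned to genes. The libraries of Wnt1Cre-mTmG brain NSCs and DRG pNSCs were the shallowest, and 3 counts, the floor used here, corresponded to 0.296 counts-per-million (CPM) in the shallowest library and 0.130 CPM in the deepest. Levels are given as CPM scaled with the trimmed mean of M values (TMM) over all 28 samples. All 7 NSC markers, among them Sox2, Pax6 and Fabp7, were above 3 counts in every brain NSC and pNSC sample. Of 11 leukocyte markers, 1 or 2 were above the floor in these groups, with Cd68 the highest and Cd3e and Cx3cr1 at 0 in each of them, and the summed level of the list ranged from 1.09 to 5.14 CPM. It was 110 to 114 CPM in tail cells, 662 to 695 CPM in DRG NCSCs, where Lyz2 led, and 4493 to 4513 CPM in lung cells. The 6 fibroblast markers, collagen genes among them, summed to 381 to 392 CPM in Wnt1Cre-mTmG tail pNSCs and 10.6 to 12.7 CPM in the brain NSCs of that experiment. DRG NCSC replicate 3 stood apart from its group, with a chi-square per gene of 16.8 and 21.0 against the other two, which differed from each other by 2.22.

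Tmem173 was highest in the pNSCs of the Nes-GFP and Wnt1Cre-mTmG experiments and lowest in the Sox2-GFP brain NSCs. The gene lies at chr18:35733679-35740554 on the minus strand of GRCm38, and its product is STING itself. In the Nes-GFP experiment it measured 13.9 and 13.2 CPM in the brain NSCs, 40.8 and 43.1 CPM in the lung pNSCs and 31.8 and 30.5 CPM in the tail pNSCs. In the Sox2-GFP experiment the 3 brain NSC samples read 2.07, 1.95 and 2.41 CPM and the 3 lung pNSC samples 10.8, 9.25 and 9.23 CPM. The Wnt1Cre-mTmG brain NSCs had 9.65, 11.3 and 10.8 CPM, the tail pNSCs 29.2, 29.4 and 29.4 CPM and the DRG pNSCs 26.0, 27.7 and 30.5 CPM. Within each experiment every pNSC sample was above every brain NSC sample, which is what the selection used. The corresponding log2 fold changes were 1.62 for Nes-GFP lung pNSCs, 1.20 for Nes-GFP tail pNSCs, 1.47 for Wnt1Cre-mTmG tail pNSCs, 1.40 for DRG pNSCs and 2.19 for Sox2-GFP lung pNSCs. Across experiments the groups were not ordered by organ. The Sox2-GFP lung pNSCs, at 9.75 ± 0.882 CPM (SD, n = 3), overlapped the Wnt1Cre-mTmG brain NSCs, at 10.6 ± 0.856 CPM (SD, n = 3), and every one of their samples was below the Nes-GFP brain NSCs, at 13.6 ± 0.493 CPM (SD, n = 2). The difference between these experiments was not tested.

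**Figure D1:**
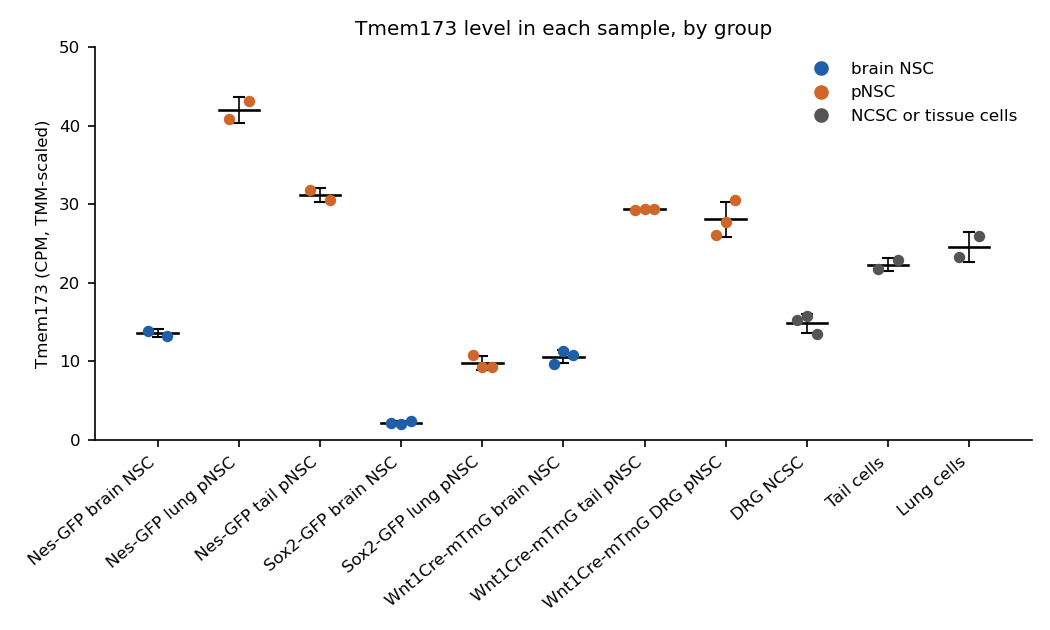
Level of Tmem173 in CPM, TMM-scaled over all samples (y axis, starting at 0), in each of the 11 groups (x axis); points are samples, horizontal lines are group means and error bars are SD. Nes-GFP lung pNSCs sit highest, at 40.8 and 43.1 CPM, and Sox2-GFP brain NSCs lowest, between 1.95 and 2.41 CPM.

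The other groups lay between these. Tmem173 was at 21.7 and 22.9 CPM in the tail cells and at 23.2 and 25.9 CPM in the lung cells. The 3 DRG NCSC samples had 15.3, 15.7 and 13.5 CPM, with replicate 3 the lowest. From lowest to highest mean the order was Sox2-GFP brain NSCs, Sox2-GFP lung pNSCs, Wnt1Cre-mTmG brain NSCs, Nes-GFP brain NSCs, DRG NCSCs, tail cells, lung cells, DRG pNSCs, Wnt1Cre-mTmG tail pNSCs, Nes-GFP tail pNSCs and Nes-GFP lung pNSCs. The samples of 3 neighbouring pairs in this order overlapped: Sox2-GFP lung pNSCs with Wnt1Cre-mTmG brain NSCs, Nes-GFP brain NSCs with DRG NCSCs, and DRG pNSCs with Wnt1Cre-mTmG tail pNSCs.

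Differences of Tmem173 among pNSC groups and from other cells rest on the same libraries as the selection and are described without a test. Nes-GFP tail pNSCs were below Nes-GFP lung pNSCs, with a log2 fold change of -0.42. Wnt1Cre-mTmG tail and DRG pNSCs overlapped, with a log2 fold change of 0.07. Nes-GFP lung pNSCs were above the lung cells by 0.74 and Nes-GFP tail pNSCs above the tail cells by 0.40 on the log2 scale, and neither pair overlapped. Sox2-GFP lung pNSCs went the other way against the same 2 lung samples, with a log2 fold change of -1.35. These lung samples belong with the Nes-GFP groups and not with the Sox2-GFP ones, so cell type and experiment cannot be told apart there, and the Sox2-GFP groups held the lowest Tmem173 levels of all. In DRG NCSCs Tmem173 was 0.50 above the Wnt1Cre-mTmG brain NSCs on the log2 scale, and it was higher by 0.97 in the tail pNSCs and by 0.90 in the DRG pNSCs than in the NCSCs. In bulk samples a smaller share of expressing cells and less RNA per cell cannot be told apart.

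A gene was called where edgeR's quasi-likelihood test gave a Benjamini-Hochberg adjusted p under 0.05 and the change was at least 2-fold. Ifih1, the RNA sensor among the members, was scarce in all NSC and pNSC groups and moved in different directions by experiment. It lies at chr2:62595798-62646255. In the Nes-GFP experiment the brain NSCs had 1.37 and 1.07 CPM, the lung pNSCs 0.522 and 0.893 CPM and the tail pNSCs 0.400 and 1.01 CPM. These samples did not overlap with the brain NSCs, yet neither difference passed the test, with log2 fold changes of -0.82 ± 0.37 (SE; adjusted p = 0.0633) for lung and -0.74 ± 0.37 (SE; adjusted p = 0.0841) for tail. With 1 library left out, the log2 fold change ran from -1.22 to -0.45 for lung and from -1.59 to -0.26 for tail. The lowest values were those without lung pNSC replicate 2 and without tail pNSC replicate 2. In the Sox2-GFP experiment Ifih1 fell from 2.02, 2.38 and 2.98 CPM in the brain NSCs to 0.862, 0.743 and 1.20 CPM in the lung pNSCs. That was a log2 fold change of -1.38 ± 0.22 (SE; adjusted p = 8.00e-10). Wnt1Cre-mTmG tail pNSCs showed the opposite, with 4.81, 3.59 and 2.72 CPM against 1.34, 1.06 and 1.44 CPM in the brain NSCs, a rise of 1.54 ± 0.26 (SE, log2; adjusted p = 5.27e-05). DRG pNSCs had 2.37, 1.77 and 2.69 CPM, a log2 fold change of 0.82 ± 0.32 (SE; adjusted p = 0.0437) that stayed under 2-fold. All of these were far below the DRG NCSCs, at 16.8 ± 1.19 CPM (SD, n = 3), and the lung cells, at 68.6 ± 2.50 CPM (SD, n = 2).

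Tbk1 and Irf3, the kinase below STING and its substrate, differed by less than 2-fold between pNSCs and brain NSCs in every experiment. Tbk1, at chr10:121546455-121586787, had group means from 34.3 to 41.0 CPM in the brain NSC and pNSC groups other than the Wnt1Cre-mTmG tail pNSCs. Those tail pNSCs measured 27.0, 25.9 and 27.4 CPM, all below the 42.8, 40.5 and 39.5 CPM of their brain NSCs, with a log2 fold change of -0.61 ± 0.06 (SE) and an adjusted p of 7.37e-08, under 2-fold. The kinase was also lower in DRG pNSCs than in brain NSCs, by -0.26 ± 0.06 (SE, log2; adjusted p = 0.00269). Lung cells, at 72.3 and 71.6 CPM, and DRG NCSCs, at 59.5, 57.5 and 60.2 CPM, were above all stem cell groups from the brain and all pNSC groups. Tbk1 was called lower in Nes-GFP lung pNSCs than in lung cells, with a log2 fold change of -1.06 ± 0.07 (SE; adjusted p = 5.20e-59), and at -0.999 without the filter it fell just short of 2-fold. In Sox2-GFP lung pNSCs it was at -0.97 ± 0.05 (SE, log2) and passed 2-fold with DESeq2, at -1.06.

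Irf3, at chr7:44997648-45002848, is the factor that TBK1 activates and is present in most cells before any stimulus. Its group means ran from 35.3 to 44.2 CPM over the brain NSC and pNSC groups. The Nes-GFP tail pNSCs, at 45.9 and 42.6 CPM, were above their brain NSCs, at 35.7 and 38.8 CPM, by 0.25 ± 0.07 (SE, log2; adjusted p = 0.000716). Sox2-GFP lung pNSCs exceeded their brain NSCs by 0.20 ± 0.05 (SE, log2; adjusted p = 7.07e-05). Neither change reached 2-fold, and Irf3 was not called in any of the 13 comparisons. Exons of Irf3 overlap those of Bcl2l12 on the opposite strand, and no source used here says whether reads were counted by strand.

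Irf1, a transcription factor that interferon gamma induces through the gamma-activated sequence, lies at chr11:53770014-53778374. In the Nes-GFP experiment the brain NSCs, lung pNSCs and tail pNSCs were alike, with samples between 4.77 and 5.77 CPM and log2 fold changes from brain of 0.02 ± 0.15 (SE) and 0.06 ± 0.15 (SE). In the Sox2-GFP experiment Irf1 was 5.76, 5.54 and 5.62 CPM in the brain NSCs and 11.2, 11.01 and 11.1 CPM in the lung pNSCs. That gave a log2 fold change of 0.98 ± 0.10 (SE; adjusted p = 2.55e-23), just under 2-fold, and 1.01 without the filter on low counts. The Wnt1Cre-mTmG brain NSCs had 12.4, 11.2 and 12.3 CPM and the DRG pNSCs 10.0, 11.5 and 11.7 CPM, and these groups overlapped. The tail pNSCs of that experiment had only 3.58, 3.40 and 3.82 CPM. They fell below the brain NSCs by -1.73 ± 0.10 (SE, log2; adjusted p = 1.12e-10) and below the DRG pNSCs by -1.61 ± 0.11 (SE, log2; adjusted p = 3.99e-10). Irf1 overlaps exons of Gm17334 on the opposite strand.

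Irf7, which interferon induces and which amplifies its own pathway, was at most 1.08 CPM in every brain NSC and pNSC sample. It lies at chr7:141262706-141266481 and overlaps exons of Phrf1 on the opposite strand. In the Wnt1Cre-mTmG tail pNSCs it had 16, 18 and 16 counts, or 0.699, 0.828 and 0.805 CPM, and in their brain NSCs 2, 0 and 4 counts. Over the groups this was 50 against 6 counts, a count ratio of 4.31 (95% exact interval 1.85 to 12.3, counting error only), and the test called it higher, with a log2 fold change of 2.07 and an adjusted p of 0.00224. With 1 library left out, the log2 fold change ran from 1.55 to 2.97, the highest without brain NSC replicate 3. Sox2-GFP brain NSCs held 12, 25 and 8 counts and their lung pNSCs 2, 10 and 4 counts, so the groups overlapped. The test still called Irf7 lower in these lung pNSCs, with a log2 fold change of -1.63 ± 0.40 (SE; adjusted p = 0.000108). Leaving out 1 library moved it to -1.20 without brain NSC replicate 2 and to -2.44 without lung pNSC replicate 2. The tail pNSCs were also called above the DRG pNSCs, at 3, 2 and 6 counts, with a log2 fold change of 1.18 ± 0.45 (SE; adjusted p = 0.0305). That call was lost without tail pNSC replicate 2 or 3 or without DRG pNSC replicate 1 or 2, with log2 fold changes from 0.93 to 1.15.

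Stat2, at chr10:128270559-128292849, joins IRF9 in the complex that binds the response element printed above. It was lower in both groups of tail pNSCs. Nes-GFP tail pNSCs had 18.9 and 16.4 CPM against 28.5 and 26.2 CPM in their brain NSCs and 26.8 and 25.7 CPM in the lung pNSCs, a log2 fold change from brain of -0.64 ± 0.09 (SE; adjusted p = 8.65e-13). Wnt1Cre-mTmG tail pNSCs had 13.2, 11.8 and 12.2 CPM against 19.1, 18.3 and 21.0 CPM, a log2 fold change of -0.65 ± 0.09 (SE; adjusted p = 3.40e-06). In both experiments the groups did not overlap, and the changes stayed under 2-fold. The pNSCs from lung and DRG overlapped the brain NSCs of the Nes-GFP and Wnt1Cre-mTmG experiments, with log2 fold changes of -0.06 ± 0.08 (SE) and 0.15 ± 0.09 (SE), and in the Sox2-GFP experiment the change was 0.09 ± 0.06 (SE; adjusted p = 0.170).

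Isg15 and Ifit1, the interferon-stimulated genes among the members, were at or near the floor in every brain NSC and pNSC group. Isg15 encodes a ubiquitin-like protein and lies at chr4:156199424-156200818. Its counts ran from 1 to 12 per library over these groups, and the highest level was 0.576 CPM, in a Sox2-GFP brain NSC sample. Ifit1, at chr19:34640871-34650009, encodes a protein that binds foreign RNA ends, and its counts ran from 0 to 8 per library. It was called lower in Nes-GFP tail pNSCs, with 0 and 2 counts, than in their brain NSCs, with 8 and 4 counts, at an adjusted p of 0.0334. The count ratio was 0.180 (95% exact interval 0.0196 to 0.809, counting error only), and the call was lost with DESeq2, without tail pNSC replicate 1 and without brain NSC replicate 1. At this depth no other difference in Isg15 or Ifit1 between pNSCs and brain NSCs was detectable with all samples in the 5 comparisons. Without Wnt1Cre-mTmG brain NSC replicate 2, which held 5 of the 7 Isg15 counts of its group, Isg15 was called higher in the tail pNSCs (log2 fold change 2.07, adjusted p = 0.0216).

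**Figure D2:**
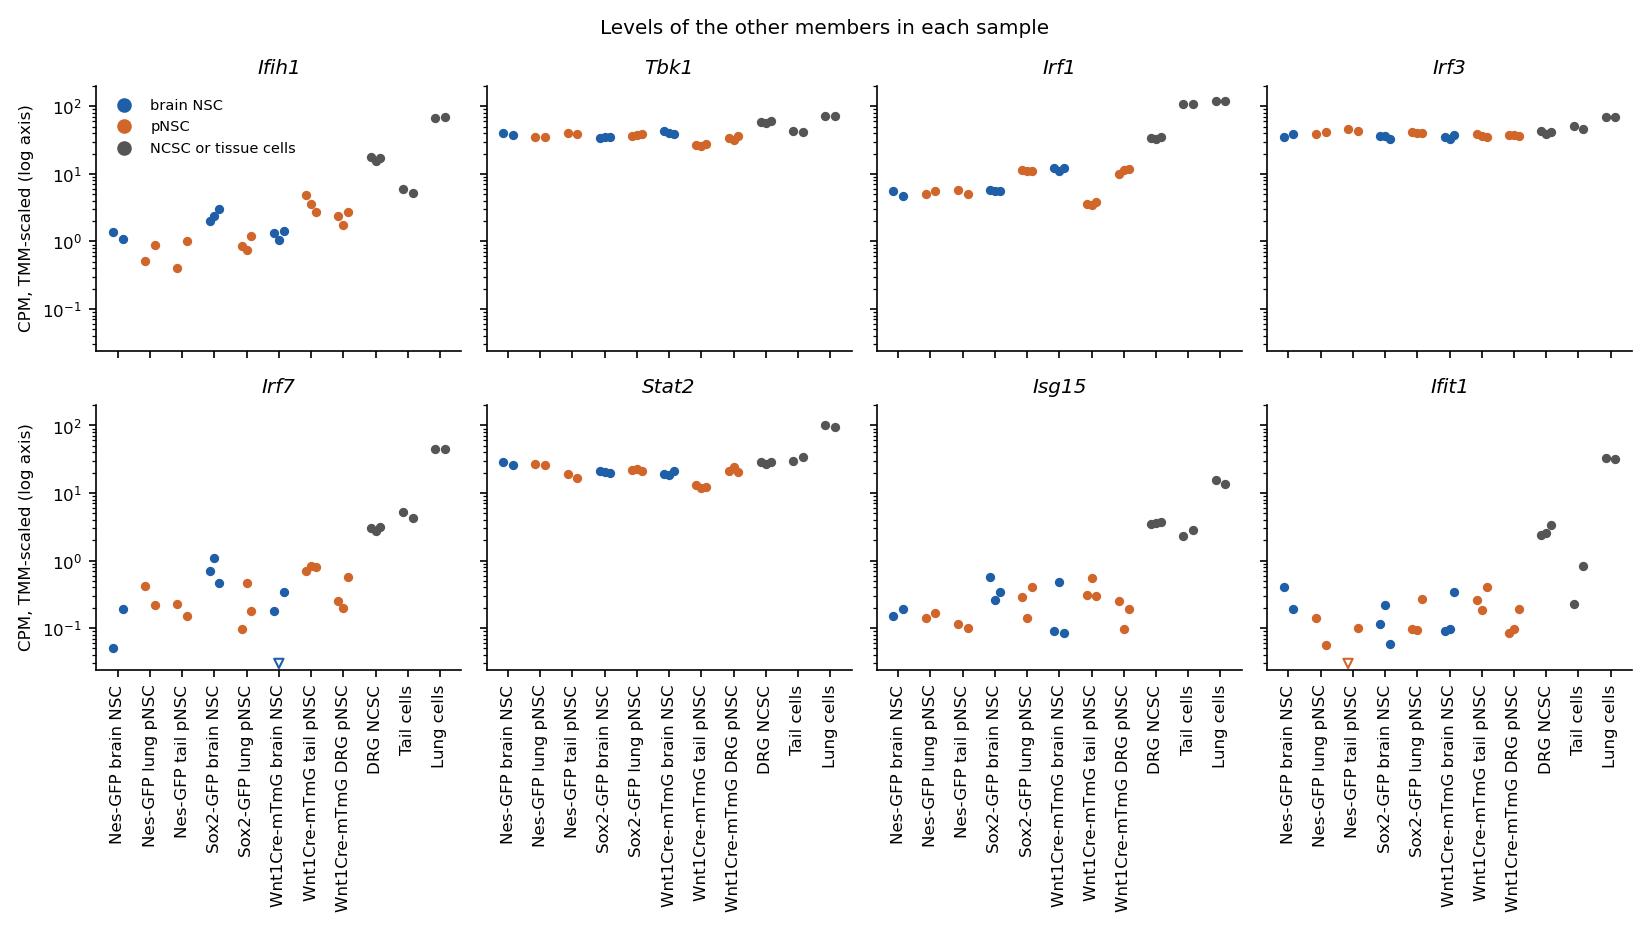
Level of the 8 other members in CPM on a log axis (y axis) in each sample, by group (x axis, in the same order in every panel); open triangles at the lower edge mark samples with 0 counts. Over the brain NSC and pNSC samples Tbk1 lies between 25.9 and 42.8 CPM, Irf3 between 32.4 and 45.9 CPM and Stat2 between 11.8 and 28.5 CPM, while Irf7, Isg15 and Ifit1 stay at or under 1.08 CPM in all brain NSC and pNSC samples and rise to between 13.7 and 45.6 CPM in the lung cells.

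Read by comparison, from 0 to 3 of the 8 tested members were called between pNSCs and brain NSCs. Whether these counts differ from the shares over all genes was not tested. In Nes-GFP lung pNSCs 0 of 8 were called by edgeR and 0 by DESeq2, while 8.71% of the 16948 genes tested were called and 2 members, Ifih1 and Tbk1, had an unadjusted p under 0.05. In Nes-GFP tail pNSCs 1 of 8 was called, against 10.9% of all genes, and DESeq2 called 0. Sox2-GFP lung pNSCs had 2 of 8 called, both lower, against 15.7% of 16234 genes. Among Wnt1Cre-mTmG cells, tail pNSCs had 3 of 8 called against 18.2% of 14448 genes, and DRG pNSCs had 0 of 8 by either tool against 9.53%, with Ifih1 and Tbk1 at an unadjusted p under 0.05. Between pNSC groups, 0 of 8 were called in Nes-GFP tail against lung pNSCs by either tool, where 12.9% of genes were called and 3 members, Irf3, Stat2 and Tbk1, had an unadjusted p under 0.05. Wnt1Cre-mTmG tail against DRG pNSCs gave 2 of 8, against 18.0%.

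Whether the change from brain NSCs to pNSCs differed between experiments was tested for 6 members in each organ, those for which every library of at least 1 of the 2 groups was above 3 counts in both experiments. These were Ifih1, Tbk1, Irf1, Irf3 and Stat2 in both organs, with Ifit1 in the tail and Irf7 in the lung, each on few counts. Ifit1 entered through the Nes-GFP brain NSCs and the Wnt1Cre-mTmG tail pNSCs, and Irf7 through the Nes-GFP lung pNSCs and the Sox2-GFP brain NSCs. Entry through opposite groups favours the direction found for these 2 genes, and both are included in the counts that follow. In the tail, Wnt1Cre-mTmG against Nes-GFP, 4 of 6 had an adjusted p under 0.05 in edgeR's interaction contrast, as did 48.7% of all 17393 genes. In the lung, Sox2-GFP against Nes-GFP, 3 of 6 did, against 46.9% of all genes. These shares lie near the background, and mouse line and experiment cannot be told apart.

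Against lung cells, 7 of 8 members were called lower in Nes-GFP lung pNSCs, where 55.0% of all genes were called in either direction and 34.9% lower. Irf7, Isg15 and Ifit1 among them passed the filter only through the lung or tail cells, which fixes the direction of their calls. Irf1 was at 120 and 118 CPM in the lung cells, a log2 fold change of -4.53 ± 0.09 (SE) for the pNSCs. Ifit1 had 520 to 607 counts per lung sample and 1 to 3 counts per pNSC sample, so the lung cells were 319-fold higher (95% exact interval 124 to 1173, counting error only). Isg15 was 94.8-fold higher in the lung cells (interval 43.2 to 259) and Irf7 135-fold higher (interval 78.7 to 254). In Sox2-GFP lung pNSCs 6 of 8 were called lower, where 56.3% of genes were called, against the same 2 lung samples of the other experiment. In that fit Isg15 and Ifit1 passed the filter only through the lung cells. Among all genes, 20.2% were called higher in the Nes-GFP lung pNSCs, and in the Sox2-GFP lung pNSCs 21.3% were called higher and 34.9% lower. The leukocyte, endothelial, epithelial and fibroblast marker lists moved with these differences. All 11, all 5, all 5 and all 6 of their markers were above the floor in the lung cells. The part of these cells in the result was not tested.

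Against tail cells, 5 of 8 members were called lower in Nes-GFP tail pNSCs and the other 3 were lower by less than 2-fold, against 46.7% of all genes called, 32.6% lower and 14.1% higher. Here too Irf7, Isg15 and Ifit1 passed the filter only through the lung or tail cells, which fixes the direction of their calls. Irf1 stood at 107 CPM in both tail samples against 5.77 and 4.97 CPM, a log2 fold change of -4.41 ± 0.09 (SE). Isg15 had 41 and 44 counts in tail cells and 2 in each tail pNSC sample, and was 23.6-fold higher in the tail cells (95% exact interval 8.90 to 88.7, counting error only). Stat2, at -0.95 ± 0.09 (SE, log2), lay just inside the 2-fold limit and passed it with DESeq2, without tail pNSC replicate 1 and without tail cell replicate 1. Ifit1, with 4 and 13 counts in the tail cells and 0 and 2 in the pNSCs, was not called without tail cell replicate 2 (log2 fold change -2.02). Ifih1 was at -3.03 on the log2 scale. It ran from -3.88 to -2.55 with 1 library left out, the lowest without tail pNSC replicate 2. Fibroblast markers summed to 72244 to 74145 CPM in the tail cells. Endothelial markers summed to 950 to 984 CPM there and neural crest and Schwann markers to 870 to 888 CPM. Epithelial markers were at 375 to 378 CPM and leukocyte markers at 110 to 114 CPM. The part of these cells was not tested.

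In DRG NCSCs all 8 tested members were above the Wnt1Cre-mTmG brain NSCs at an adjusted p under 0.05, and 5 of them by at least 2-fold. Isg15 and Ifit1 passed the filter in this experiment only through the NCSCs, which fixes the direction of their calls in all NCSC comparisons. Isg15 had 75, 77 and 64 counts per sample, or 3.47, 3.64 and 3.73 CPM, and its counts against Wnt1Cre-mTmG brain NSCs were 17.2-fold higher (95% exact interval 8.20 to 43.3, counting error only). Ifih1, at 17.9, 15.5 and 16.9 CPM, was higher by 3.71 ± 0.20 (SE, log2; adjusted p = 1.23e-11), and Irf1, at 33.8, 33.0 and 34.7 CPM, by 1.503 ± 0.08 (SE, log2; adjusted p = 4.66e-12). Beside these 5 of 8 members called higher, 36.9% of genes were called, 22.1% higher and 14.8% lower. Against the NCSCs, 7 of 8 members were called lower in Wnt1Cre-mTmG tail pNSCs, with 37.9% of genes called, 22.6% lower and 15.3% higher. In DRG pNSCs 5 of 8 were called lower, with 38.3% of genes called, 23.3% lower and 15.1% higher. No member call of the NCSC comparisons was lost without NCSC replicate 3. Against brain NSCs the log2 fold changes were 4.06 for Isg15, 3.99 for Irf7 and 3.89 for Ifit1. With 1 library left out, Isg15 ran from 3.66 to 5.26, the highest without brain NSC replicate 2. Irf7 ran from 3.47 to 4.89 and Ifit1 from 3.57 to 4.78, both highest without brain NSC replicate 3. Lyz2, a gene of macrophages and other myeloid cells, averaged 521 CPM in the NCSCs, 9 of 11 leukocyte markers were above the floor, and Cd3e was at 0. The part of these cells in the result was not tested.

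**Figure D3:**
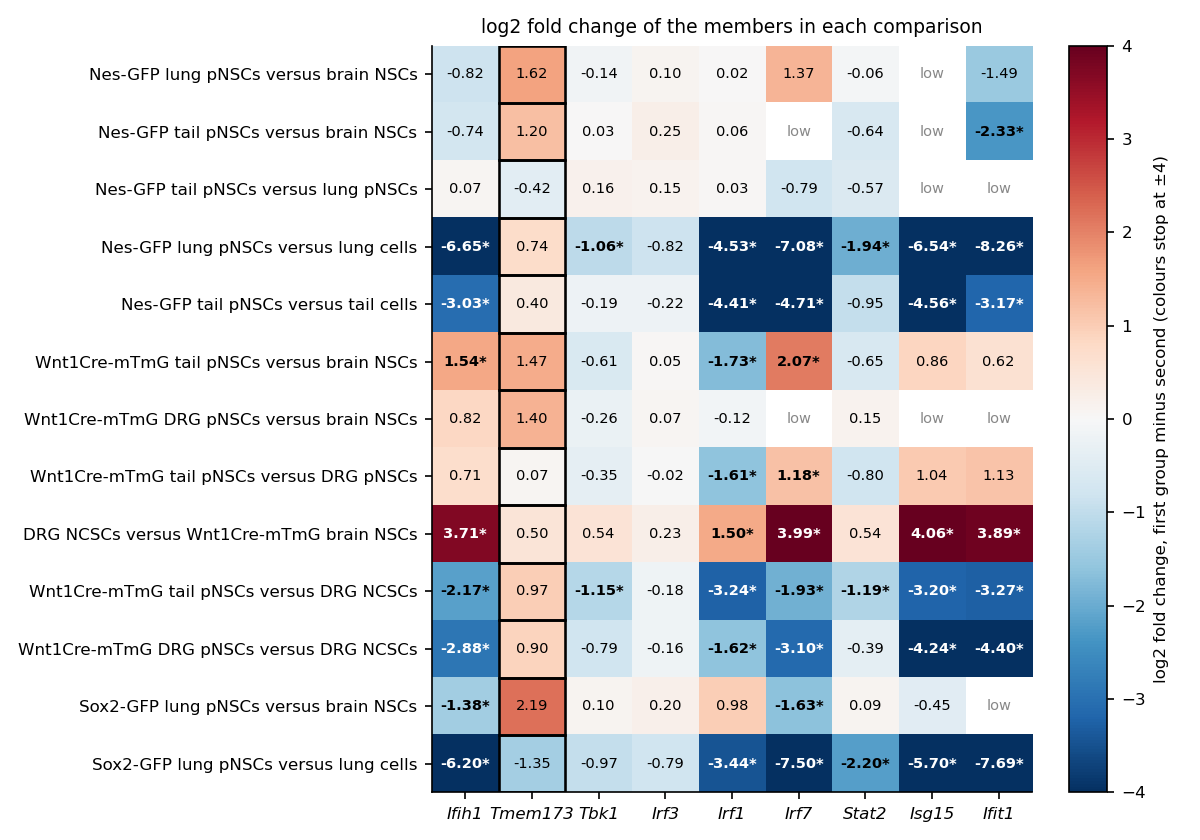
Log2 fold change (colour and number, first group minus second) of the 9 members (x axis) in the 13 comparisons (y axis); asterisks mark calls, boxes mark the Tmem173 values, which carry no test, and "low" marks genes with a library at or under 3 counts in both groups. The rows against lung cells, tail cells and DRG NCSCs hold most asterisks, and the Irf3 column holds none.

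A wider list of 113 pathway genes found in the table, the members among them, was read in the same way, grouped by role. Tmem173 was left out of the counts of calls but not of the medians. Between Nes-GFP lung pNSCs and brain NSCs, 5 of 101 listed genes were called higher and 12 lower, with a median log2 fold change of -0.16, and 11 of the 12 were interferon-stimulated genes. Of all genes tested, 4.56% were called higher and 4.15% lower. Tlr3, the endosomal sensor of double-stranded RNA, rose from 29.4 ± 3.27 to 86.5 ± 2.96 CPM (SD, n = 2), and Ifitm3, a membrane protein that blocks virus entry, from 1.78 ± 0.371 to 14.3 ± 0.567 CPM (SD, n = 2). Gbp7, a guanylate-binding protein, fell from 18.7 ± 1.38 to 3.34 ± 0.493 CPM (SD, n = 2), and Ifit2, a relative of Ifit1, from 27.6 ± 2.44 to 11.5 ± 0.966 CPM (SD, n = 2).

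In Nes-GFP tail pNSCs 3 of 101 listed genes were higher and 19 lower than in brain NSCs, with a median of -0.01. Of all genes tested, 6.59% were called lower and 4.31% higher in this comparison. Ifit2 was at 4.65 ± 0.595 CPM, Irgm1, an interferon-induced GTPase, at 2.22 ± 0.339 against 12.1 ± 1.68 CPM, and Gbp7 at 4.03 ± 0.609 CPM (all SD, n = 2), and each fell. Wnt1Cre-mTmG tail pNSCs had 8 of 86 listed genes higher and 20 lower, against 9.16% and 9.05% of all genes. Ifit2 fell there from 56.5 ± 0.660 to 5.71 ± 0.897 CPM, and Ifi27 from 33.2 ± 0.676 to 3.41 ± 0.569 CPM (SD, n = 3). Ifi203, a DNA-binding protein of the interferon-inducible class, fell from 12.3 ± 0.345 CPM to 0.159 ± 0.0841 CPM (SD, n = 3) in the same tail pNSCs.

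DRG pNSCs had 2 of 86 listed genes higher and 10 lower than brain NSCs, against 3.12% and 6.41% of all genes. Nlrx1, a mitochondrial member of the NOD-like receptor family, rose from 9.53 ± 0.521 to 31.4 ± 2.37 CPM, and Gbp3 fell from 43.6 ± 0.172 to 9.40 ± 1.05 CPM (SD, n = 3). In Sox2-GFP lung pNSCs 9 of 101 were higher and 12 lower, against 5.76% and 9.99% of all genes. There Tlr3 rose from 9.31 ± 0.541 to 48.0 ± 1.83 CPM, Ifitm3 from 4.66 ± 0.241 to 30.6 ± 0.862 CPM and Cgas, the DNA sensor upstream of STING, from 4.14 ± 1.08 to 16.3 ± 0.993 CPM (SD, n = 3). The Nes-GFP lung and tail comparisons share their brain NSCs, as do the Wnt1Cre-mTmG ones.

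Tail pNSCs were also compared with lung pNSCs in the Nes-GFP experiment and with DRG pNSCs in the Wnt1Cre-mTmG experiment. Tlr3 was at 15.9 ± 1.36 CPM in Nes-GFP tail pNSCs against 86.5 CPM in lung pNSCs, and at 5.41 ± 0.610 CPM in Wnt1Cre-mTmG tail pNSCs against 64.7 ± 4.67 CPM in DRG pNSCs. Ifitm3 was at 0.235 ± 0.170 CPM in the Nes-GFP tail pNSCs and 14.3 CPM in the lung pNSCs. In the Nes-GFP comparison 6 of 101 listed genes were called higher in tail and 14 lower, and in the Wnt1Cre-mTmG comparison 12 of 86 were higher in tail and 12 lower. Of all genes, 5.0% were called higher and 7.86% lower in the first of these comparisons, and 10.4% and 7.61% in the second.

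Against tissue cells and NCSCs the listed genes were called mostly in one direction. Lower in Nes-GFP lung pNSCs than in lung cells were 83 of 101 listed genes and 0 were higher, 50 of the 51 interferon-stimulated genes among the lower, where 34.9% of all genes were called lower. Many of these passed the filter only through the lung cells, which fixes the direction of a call: all 51 interferon-stimulated genes were above 3 counts in every lung cell sample and 23 of 51 in every Nes-GFP lung pNSC sample. Lower in Nes-GFP tail pNSCs than in tail cells were 63 of 101, against 32.6% of all genes, and 1 was higher, Gbp3, at 32.6 ± 0.700 against 4.17 ± 0.385 CPM (SD, n = 2). The filter bears on this count too, with 47 of 51 interferon-stimulated genes above 3 counts in every tail cell sample and 21 of 51 in every tail pNSC sample. In DRG NCSCs 42 of 86 listed genes were higher than in brain NSCs and 4 lower, against 22.1% and 14.8% of all genes, among the higher 22 of 40 interferon-stimulated genes and 5 of 10 factors of the IRF and STAT families. The filter bears on these counts as well and favours calls in the higher direction. Above 3 counts in every sample were 47 of 51 interferon-stimulated genes in the NCSCs and 29 of 51 in these brain NSCs. Cxcl10, a chemokine induced by interferon, stood at 18.9 ± 0.417 CPM in the NCSCs against 0.171 ± 0.223 CPM in the brain NSCs (SD, n = 3). Without NCSC replicate 3 the counts were 43 higher and 5 lower. Of the 10 interferon genes listed, 0 passed the filter on low counts in any experiment. None exceeded the floor in every sample of a brain NSC, pNSC, NCSC or tail group.

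**Figure D4:**
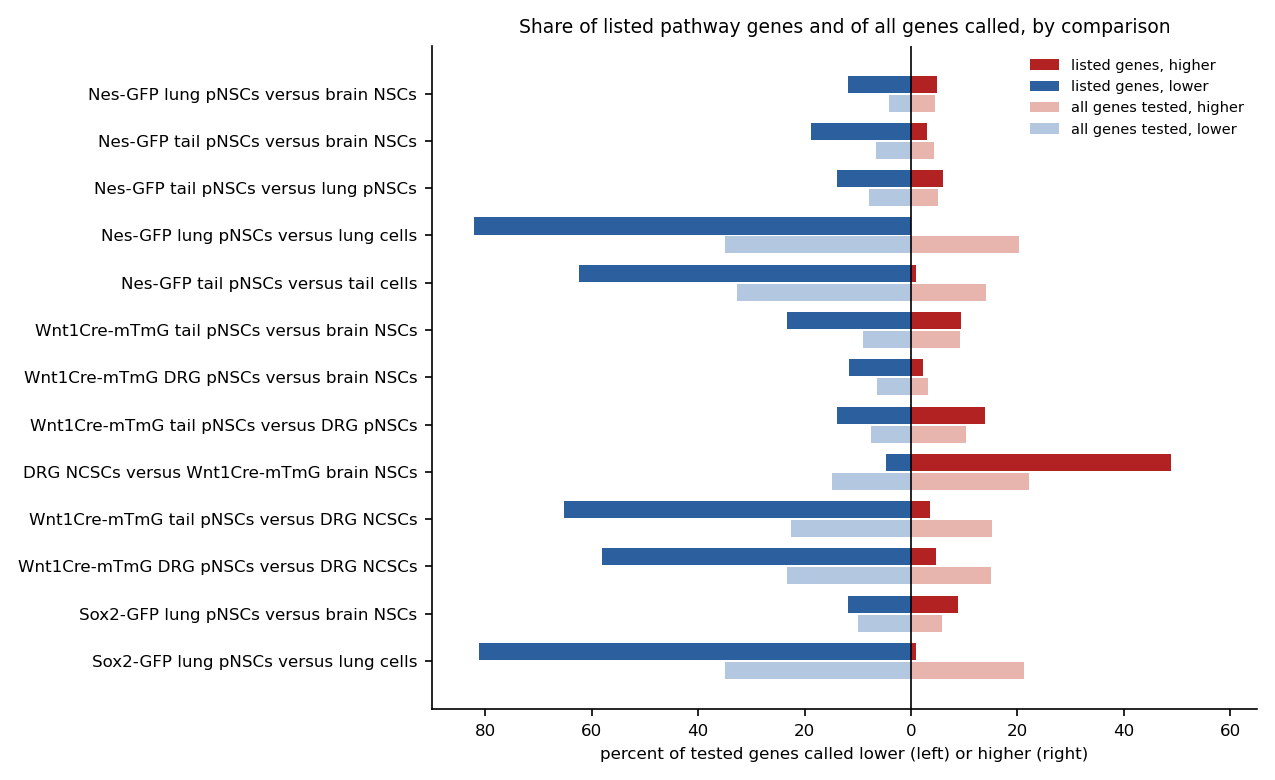
Share of tested genes called lower (bars to the left) or higher (bars to the right) in each of the 13 comparisons, in percent, for the listed pathway genes (dark bars) and for all genes tested (light bars). The listed genes exceed all genes most in the lower direction against lung cells, tail cells and DRG NCSCs. The filter on low counts, which a gene can pass through those cells alone, favours this direction.

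Tmem173 was set beside the summed level of the 51 interferon-stimulated genes in each sample, as a description. Nes-GFP lung pNSCs had the highest Tmem173 with an interferon-stimulated sum of 209 and 214 CPM, while their brain NSCs, with lower Tmem173, had 234 and 225 CPM. Nes-GFP tail pNSCs had 152 and 158 CPM. Wnt1Cre-mTmG tail pNSCs, at 168, 175 and 167 CPM, and DRG pNSCs, at 276, 285 and 274 CPM, were below their brain NSCs, at 391, 392 and 383 CPM. Sox2-GFP lung pNSCs, at 255, 260 and 269 CPM, were above their brain NSCs, at 166, 160 and 161 CPM. The sum was thus below that of the brain NSCs in 4 of 5 pNSC groups and above it in 1. The median group mean of the 51 genes did not always go the same way. It was 1.09 CPM in Wnt1Cre-mTmG tail pNSCs against 0.721 CPM in their brain NSCs. In Sox2-GFP lung pNSCs it was 0.275 CPM against 0.691 CPM. In the other pNSC groups the median, like the sum, was below that of their brain NSCs. The median group mean of these 51 genes ran from 0.108 to 1.09 CPM over the 8 brain NSC and pNSC groups and was 4.17 CPM in tail cells, 5.28 CPM in DRG NCSCs and 46.1 CPM in lung cells.

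**Figure D5:**
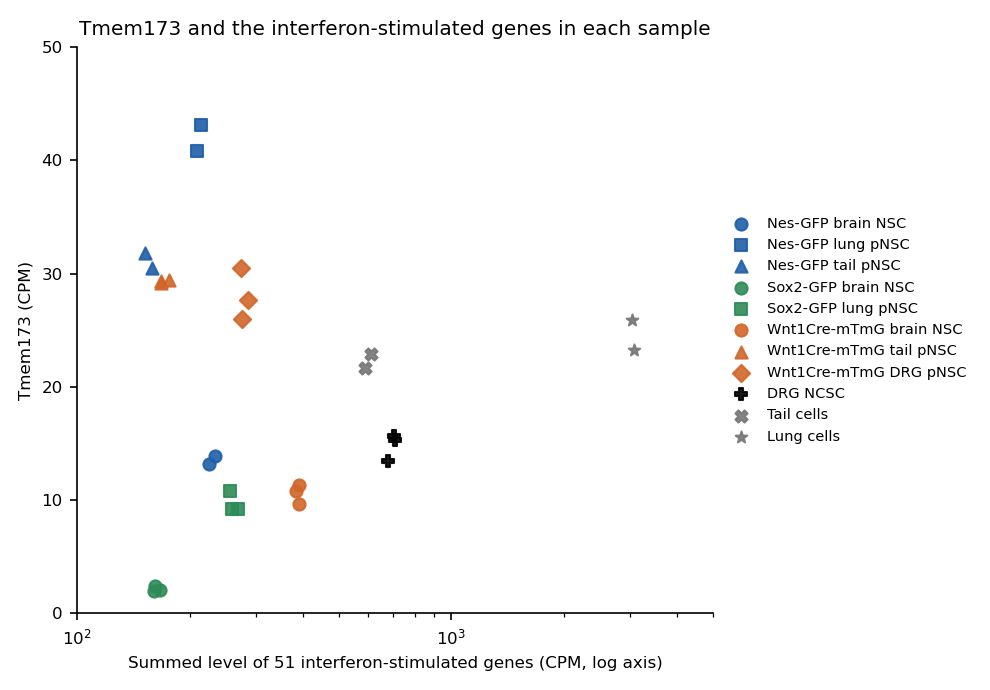
Tmem173 in CPM (y axis) against the summed level of the 51 interferon-stimulated genes in CPM on a log axis (x axis), 1 point per sample. Lung cells lie far right, at 3033 and 3073 CPM, with Tmem173 at 23.2 and 25.9 CPM, while the pNSC samples with the highest Tmem173 lie at the left.

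Levels between genes can be compared only per length. Per kilobase of merged exons, Nes-GFP brain NSCs had 10.8 CPM of Irf3, 9.90 of Tbk1, 4.94 of Tmem173, 4.61 of Stat2 and 1.30 of Irf1, and 0.230 or less of Isg15, Ifih1, Ifit1 and Irf7. In the Nes-GFP lung pNSCs Tmem173 reached 15.3 CPM per kilobase and passed Irf3, at 11.7. Over the 11 group means of log2(CPM + 1), the genes most like Tmem173 among 17392 were Nudt6 (Pearson r = 0.872), Ifrd1 (0.844), Plk2 (0.827), Smim27 (0.799) and Rpp40 (0.785). Group means ran only from 0.652 to 2.17 CPM for Nudt6 and from 1.61 to 2.95 CPM for Smim27, against 2.14 to 41.9 CPM for Tmem173. Of the other members Irf3 was closest, at 0.339, and Tbk1 farthest, at 0.0281. These correlations are descriptions over 11 groups that share experiments and libraries.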

How the data were processed

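Bulk RNA-seq of 28 mouse samples in 11 groups was examined. The authors deposited whole-number read counts per gene. According to their methods and processing notes, single-end reads of poly(A)-selected libraries were aligned to GRCm38 with HISAT2, and reads per gene were counted with HTSeq. Whether reads were counted by strand is not given in the sources used here.

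Samples were grouped by their labels. Counts were fitted with edgeR 4.0.16 (R 4.3.3), separately for the Nes-GFP, Sox2-GFP and Wnt1Cre-mTmG experiments, the Sox2-GFP fit also holding the 2 lung cell samples of the first. Low genes were removed with filterByExpr (minimum count 10, minimum total 15), libraries were scaled with TMM, and groups were compared with quasi-likelihood tests and Benjamini-Hochberg adjustment over all genes tested. A gene was called at an adjusted p under 0.05 and a log2 fold change of at least 1 in size. Differences between experiments were tested as interaction contrasts in a fit of all 28 samples. Fold changes come from these fits and levels from CPM over all 28 samples. Ratios of few counts carry an exact 95% interval that covers counting error only.

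Alternatives were DESeq2 1.42.0, its size factors within edgeR, no filter, a fit of only the groups compared, the replicate number as a block, and leaving out each replicate. The tests were checked on simulated counts. The members and gene lists were chosen with earlier results of these data known. All members are described. Tmem173 carries no test, since every comparison holds libraries whose Tmem173 values chose the members. Of the other listed genes, up to 3 called in each direction per comparison could be named, those with the largest fold change whose groups did not overlap and whose higher mean was at least 5 CPM. The 5 genes most like Tmem173 were those with the highest Pearson r over the 11 group means. Gene positions and exon lengths follow GENCODE annotation of GRCm38, and promoter windows are from RefSeq. Comparisons within an experiment share their control libraries.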

Additional observations from a re-analysis of the deposited data

Results flagged for a closer look

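The change from brain NSCs to pNSCs differed between experiments for 4 of the members in the tail and for 3 in the lung, by edgeR's interaction contrast. Mouse line and experiment cannot be told apart in these contrasts, nor can age of the lung. Of all 17393 genes tested, 48.7% had an adjusted p under 0.05 in the tail contrast and 46.9% in the lung contrast, so such differences were common.

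For the tail, Ifih1 changed by 1.54 in Wnt1Cre-mTmG pNSCs and by -0.74 in Nes-GFP pNSCs on the log2 scale, a difference of 2.28 ± 0.48 (SE; adjusted p = 0.000122). Tbk1 differed by -0.64 ± 0.08 (SE; adjusted p = 1.35e-08) and Irf1 by -1.79 ± 0.16 (SE; adjusted p = 5.00e-12), both with the lower value in the Wnt1Cre-mTmG experiment. Ifit1 differed by 2.95 ± 1.20 (SE; adjusted p = 0.0408), on 0 to 8 counts per library. It entered the contrast through the Nes-GFP brain NSCs and the Wnt1Cre-mTmG tail pNSCs, which favours this direction. The largest adjusted p over the alternatives was 0.00317 for Ifih1, 6.67e-07 for Tbk1, 1.23e-09 for Irf1 and 0.196 for Ifit1. With 1 library left out, Ifih1 ran from 1.79 to 3.11 and Ifit1 from 2.10 to 6.04, the highest of each without Nes-GFP tail pNSC replicate 2.

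For the lung, Irf1 changed by 0.98 in Sox2-GFP and by 0.02 in Nes-GFP pNSCs on the log2 scale, a difference of 0.95 ± 0.15 (SE; adjusted p = 1.43e-06). Tbk1 differed by 0.23 ± 0.08 (SE; adjusted p = 0.0114). Irf7 differed by -3.0 ± 0.89 (SE; adjusted p = 0.00499), on 1 to 25 counts per library. It entered the contrast through the Nes-GFP lung pNSCs and the Sox2-GFP brain NSCs, which favours this direction. Over the alternatives the largest adjusted p was 0.000306 for Irf1, 0.128 for Tbk1 and 0.104 for Irf7. With 1 library left out, Irf7 ran from -4.19 without Nes-GFP brain NSC replicate 2 to -2.41 without replicate 1.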

How the results depend on the processing

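Of 1708 alternative values of 163 results, 1658 kept their direction and their side of the threshold. With only the 2 groups compared in the fit, listed genes called higher in Nes-GFP lung pNSCs than in brain NSCs numbered 3 instead of 5, those called lower in Sox2-GFP lung pNSCs 7 instead of 12, and those called higher in Wnt1Cre-mTmG tail pNSCs 5 instead of 8. Leaving out 1 replicate at a time gave 3 to 5 for the first of these, with 3 without brain NSC replicate 2. The cause was not tested.

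Directions reversed for 8 member values, all of 0.0911 or less in size on the log2 scale. With 1 replicate left out, Irf1 ran from -0.0838 to 0.130 in Nes-GFP lung pNSCs against brain NSCs, from -0.0510 to 0.165 in tail pNSCs against brain NSCs and from -0.0725 to 0.143 in tail against lung pNSCs, where it was also -0.0014 without the filter and -0.0067 with only the groups compared. Tbk1 ran from -0.0137 to 0.0639 in Nes-GFP tail pNSCs against brain NSCs, Ifih1 from -0.772 to 0.555 in tail against lung pNSCs, and Irf3 from -0.0555 to 0.0080 in Wnt1Cre-mTmG tail against DRG pNSCs. Between experiments, Stat2 ran from -0.129 to 0.0750 in the tail contrast and Irf3 from -0.0030 to 0.145 in the lung contrast.

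Samples with the same replicate number did not deviate together, with correlations from -0.02 to 0.03, and 17 of 33 were closest to their own number. With the replicate block the listed genes called higher in Wnt1Cre-mTmG tail pNSCs than in brain NSCs were 7 instead of 8, and the number of members called was the same in every comparison. Counts at or near 3 per library limit what can be seen of Irf7, Isg15 and Ifit1.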
